A study of Arabidopsis thaliana with 12 samples.

Results

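Genes for small helix-loop-helix proteins that control cell elongation were followed in seedlings of Arabidopsis thaliana: PRE1, PRE2, PRE4, PRE5 and PRE6, PAR1 and PAR2, HEC1 and HEC2, and IBH1. These 10 genes were chosen by gene identifier, with the authors' expression tables already known, so the values of those tables describe the genes and test nothing about them. Of these 10 genes, 9 were among the 9555 genes listed in at least 1 of the authors' 3 deposited tables of called genes. The table with the most tests covered 20020 genes, so being listed somewhere is common and nothing is read from this count. HEC1 and IBH1 were in all 3 tables, as were 1153 genes in all. PRE1, PAR1 and HEC2 were in 2, and PRE2, PRE5, PRE6 and PAR2 in 1. PRE4 was in none. The other members of these families, PRE3 and HEC3, lie outside the selection and are described beside it, so no count here is a count of a whole family.

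The study sequenced rRNA-depleted total RNA of whole seedlings in 12 libraries, 3 for each of 4 groups. The groups were the wild type Col-0 and rrc1-3, 1 mutant line in the Col-0 background altered in the RNA-binding protein gene RRC1, each in darkness and in red light. All seedlings grew on half-strength MS medium in darkness for 4 days, and the red light groups then received 3 h of red light at 7 µmol m-2 s-1. The design text asks how splicing in rrc1-3 compares with that of Col-0 in light and in darkness. The labels do not say whether the libraries of a group came from separate cultures, so the spread between libraries may be technical. The genotype labels were checked on reads spliced over the RRC1 intron at chr5:8634834-8635302. In darkness the 3 Col-0 libraries had 173, 194 and 237 such reads and the 3 rrc1-3 libraries 2, 10 and 12. In red light they had 165, 174 and 181 against 3, 10 and 20, with no overlap between genotypes in either condition. The loss is of this intron only: the other listed RRC1 introns had more spliced reads in rrc1-3. At chr5:8634509-8634669 in red light they were 186, 199 and 230 in Col-0 and 858, 993 and 1369 in rrc1-3.

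Helix-loop-helix proteins act in pairs, and a partner without a DNA-binding region takes its mate off DNA. In Arabidopsis hypocotyls and petioles, activators of the HBI1 and ACE type bind DNA and promote elongation, IBH1 binds these activators and stops them, and the PRE proteins bind IBH1 and release them. Brassinosteroid, gibberellin, auxin and light signals all act on this chain. PAR1 and PAR2 are inhibitors that bind the phytochrome-interacting factors (PIFs), bHLH activators of growth in darkness and shade. HEC proteins restrain PIF1 in seedlings and work with SPATULA (SPT) in the gynoecium.

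To show where light- and hormone-linked bHLH or BZR1 proteins could bind, the 300 bases before the annotated start were read for the genes with the largest rises in the mutant (HEC1 and HEC2) and the deepest falls in light (PAR1, PRE5 and, again, HEC2). They are printed 5′ to 3′ on the gene's strand, from the RefSeq copy of TAIR10.1, whose nuclear coordinates match TAIR10, and they contain no transcribed base of the gene. HEC1 is chr5:26765692-26765991 (+), HEC2 chr3:18658378-18658677 (-), PAR1 chr2:17837619-17837918 (-) and PRE5 chr3:10856788-10857087 (-). Capitals mark a G-box (CACGTG), a PBE-box (CACATG or CATGTG) or a brassinosteroid response element core (CGTGNG), each searched on both strands.
HEC1: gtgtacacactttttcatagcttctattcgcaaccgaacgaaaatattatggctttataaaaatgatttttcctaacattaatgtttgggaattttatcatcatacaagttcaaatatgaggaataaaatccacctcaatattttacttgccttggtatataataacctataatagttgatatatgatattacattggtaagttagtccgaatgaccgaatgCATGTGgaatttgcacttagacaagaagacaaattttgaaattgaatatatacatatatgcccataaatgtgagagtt
HEC2: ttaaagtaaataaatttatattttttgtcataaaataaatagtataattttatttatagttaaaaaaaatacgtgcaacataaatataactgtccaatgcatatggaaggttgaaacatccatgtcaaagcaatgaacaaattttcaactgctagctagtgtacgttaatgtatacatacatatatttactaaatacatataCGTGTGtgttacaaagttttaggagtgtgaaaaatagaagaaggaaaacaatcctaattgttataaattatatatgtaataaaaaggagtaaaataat
PAR1: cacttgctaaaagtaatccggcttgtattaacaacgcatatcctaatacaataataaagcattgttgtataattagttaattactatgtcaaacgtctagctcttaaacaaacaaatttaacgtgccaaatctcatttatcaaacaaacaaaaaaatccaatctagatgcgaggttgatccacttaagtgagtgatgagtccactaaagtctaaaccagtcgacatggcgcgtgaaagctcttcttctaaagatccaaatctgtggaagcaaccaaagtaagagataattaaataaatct
PRE5: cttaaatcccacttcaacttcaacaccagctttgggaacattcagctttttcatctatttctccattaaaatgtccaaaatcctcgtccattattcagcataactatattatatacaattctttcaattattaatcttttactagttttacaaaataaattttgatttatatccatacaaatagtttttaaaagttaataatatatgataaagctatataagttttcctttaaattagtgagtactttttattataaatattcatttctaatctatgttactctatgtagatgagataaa
HEC1 held 1 PBE-box, 78 bases before the start, and HEC2 held 1 brassinosteroid element core, 98 bases before it. PAR1 and PRE5 held none of these motifs, and IBH1 and PRE1 held none either. Among the other genes, PRE2 held a G-box 14 bases before its start, and PRE4, PRE6 and PAR2 held a PBE-box 63, 77 and 128 bases before theirs. Over 27443 windows of the same length the G-box was in 7.09%, the PBE-box in 13.1% and the brassinosteroid core in 14.2%. The wider E-box (CANNTG), which contains the first pair of motifs, was in 8 of the 10 genes, all but PRE5 and IBH1, and in 61.9% of windows. A match is a stretch of letters, not a bound site. The gene spans in the authors' deposited expression tables start further in than the RefSeq genes for every listed gene. For PAR1 that start is chr2:17837392, against 17837618 in RefSeq. Bases between the 2 starts were not searched, and the distances hold for the RefSeq starts only.

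All 10 are short genes. PRE1 (AT5G39860, chr5:15957368-15958559), PRE2 (AT5G15160, chr5:4921243-4922812), PRE4 (AT3G47710, chr3:17590544-17591670), PRE5 (AT3G28857, chr3:10855623-10856787) and PRE6 (AT1G26945, chr1:9351160-9352833) encode 92 or 94 amino acids and each have 1 intron. PAR1 (AT2G42870, chr2:17836416-17837618) and PAR2 (AT3G58850, chr3:21759350-21760390) encode 118 amino acids and have none. HEC1 (AT5G67060, chr5:26765992-26767257) encodes 241 amino acids and HEC2 (AT3G50330, chr3:18656955-18658377) 231. IBH1 (AT2G43060, chr2:17909007-17910210) encodes 156. No other annotated gene overlaps any of them. Coding sequences of these 5 PRE genes were 64.7% to 84.6% identical in pairs, PAR1 and PAR2 75.3% and HEC1 and HEC2 67.9%, and the longest stretch of exon shared within a family was 28 bases.

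Each expression value below is 1 FPKM (fragments per kilobase of transcript and 1e6 mapped fragments) over the 3 libraries of a group, with no value per library. The authors' deposited tables list called genes (q of at most 0.05), so the depth behind a level is unknown and no spread can be given. In both genotype tables no listed gene has a log2 change under 0.58 in size, or 1.49-fold, while the table of light in rrc1-3 goes down to 0.29. A gene missing from a genotype table may therefore have changed by less than 0.58, may have missed the threshold or may have been too low to test. With small changes left out, a median over all listed genes takes the sign of the direction called more often. Genes listed lower had a median deposited log2 change of -0.91 in darkness, -0.90 in red light and -0.55 for light in rrc1-3. For genes listed higher the medians were 0.95, 0.90 and 0.79. In whole seedlings, fewer cells of a type and less RNA per cell cannot be told apart. The plot of levels in the 3 tables shows every listed value.

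In darkness the HEC genes stood higher in rrc1-3 than in Col-0, and PRE1 and IBH1 stood lower. HEC1 was at 3.25 FPKM in Col-0 and 23.9 in rrc1-3 in the authors' deposited table, a log2 change of 2.88 or 7.37-fold. That rise was the 65th largest of 5630 listed genes, and 98.8% of them had a lower log2 change. HEC2 was at 11.7 FPKM in Col-0 and 39.3 in rrc1-3 in the authors' deposited table, 3.36-fold higher with a log2 change of 1.75. PRE1, which sequesters IBH1, was at 43.1 FPKM in Col-0 and 21.1 in rrc1-3 in the authors' deposited table, 2.04-fold lower with a log2 change of -1.03. IBH1, the inhibitor that PRE1 binds, was at 128 FPKM in Col-0 and 70.6 in rrc1-3 in the authors' deposited table, 1.81-fold lower with a log2 change of -0.86. PRE1 and IBH1 were thus both lower in the mutant. The other PRE genes of the selection were not listed in this comparison. In the authors' deposited light comparison of rrc1-3, PRE6 was at 110 FPKM in darkness and PRE1 at 20.4, so PRE1 does not stand for all PRE genes. By FPKM, which is per length, the order in Col-0 was IBH1, PRE1, HEC2, HEC1, and in rrc1-3 it was IBH1, HEC2, HEC1, PRE1.

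All 4 changes carried a q of 0.000203 in the authors' deposited table, the smallest there. Of the 10 genes, 2 were called lower and 2 higher in darkness, beside 14.9% called lower (2516 of at least 16942 genes tested) and 18.4% called higher (3114) over all genes. PRE2, PRE4, PRE5, PRE6, PAR1 and PAR2 were not listed. Because the genes were chosen with this comparison known, nothing is read from these counts.

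After 3 h of red light HEC1 was still higher and IBH1 still lower in rrc1-3, and PAR1 was lower. HEC1 was at 3.51 FPKM in Col-0 and 13.8 in rrc1-3 in the authors' deposited table, 3.92-fold higher with a log2 change of 1.97, the 153rd largest rise of 4031 listed genes. IBH1 was at 43.9 FPKM in Col-0 and 22.3 in rrc1-3 in the authors' deposited table, 1.97-fold lower with a log2 change of -0.98. PAR1, a PIF-binding inhibitor, was at 14.4 FPKM in Col-0 and 8.48 in rrc1-3 in the authors' deposited table, 1.70-fold lower with a log2 change of -0.76. The q was 0.000333 for all 3 in the authors' deposited table.

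Thus 2 of the 10 were called lower and 1 higher in red light, beside 11.0% called lower (1952 of at least 17733 genes tested) and 11.7% called higher (2079). PRE1 and HEC2, which were listed in darkness, were not listed in red light. Whether their genotype difference changed between conditions was not tested, since the table leaves out small changes and pools the libraries.

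In rrc1-3 every listed gene of the 10 was lower after 3 h of red light than in darkness, inhibitors and promoters of growth alike. PAR1 had the deepest fall, from 58.4 to 8.73 FPKM in the authors' deposited table (log2 change -2.74), which left 14.9% of its dark level. It was the 33rd deepest fall among listed genes with a finite log2 change, which 12 of the 5711 listed genes lacked. PRE5 fell from 13.5 to 2.61 FPKM in the authors' deposited table, 5.18-fold with a log2 change of -2.37. HEC2 fell from 37.9 to 7.48 FPKM in the authors' deposited table, 5.07-fold with a log2 change of -2.34. All 3 fell further than the other listed genes of the selection, of which IBH1 came next.

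IBH1 fell from 68.2 to 22.9 FPKM in the authors' deposited table, 2.97-fold with a log2 change of -1.57. PRE6, also known as KIDARI, which binds the PIF inhibitor HFR1, fell from 110 to 49.0 FPKM in the authors' deposited table, 2.25-fold with a log2 change of -1.17. PRE1 fell from 20.4 to 9.34 FPKM in the authors' deposited table, 2.18-fold with a log2 change of -1.13. PRE1 and PRE6 thus fell by similar factors from different dark levels, while PRE5 fell further.

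PRE2 fell from 1.86 to 0.765 FPKM in the authors' deposited table, 2.44-fold with a log2 change of -1.28, which a pseudocount of 1 FPKM reduces to -0.70. It was the lowest of the 9 listed genes in both conditions, and its q of 0.0153 in the authors' deposited table was the only one above the 0.000311 shared by the other 8. The shallowest falls were those of PAR2, from 72.7 to 43.6 FPKM in the authors' deposited table (log2 change -0.74, 1.67-fold), and of HEC1. HEC1 fell from 23.1 to 14.2 FPKM in the authors' deposited table, a log2 change of -0.70 or 1.63-fold. PAR1 and PAR2 thus differed in the size of their falls although they encode proteins of equal length, and so did HEC1 and HEC2, with no test of either difference available from pooled values.

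In all, the authors' deposited table calls 9 of the 10 lower, 0 higher, and PRE4 was not listed. Over all genes 10.6% were called lower (2116 of 20020 tested). The median log2 change of the 9 was -1.28, against -0.55 for all genes listed lower and 0.47 for all listed genes. The selection was made with these falls known, so the contrast with the background describes it and is no result about the families. PRE3 (AT1G74500), a PRE gene outside the selection, went the other way, from 3.37 to 5.62 FPKM in the authors' deposited table (log2 change 0.74, 1.67-fold higher, q 0.00690). HEC3 (AT5G09750) was in none of the 3 tables. The order of levels in rrc1-3 darkness was PRE6, PAR2, IBH1, PAR1, HEC2, HEC1, PRE1, PRE5, PRE2. In red light it was PRE6, PAR2, IBH1, HEC1, PRE1, PAR1, HEC2, PRE5, PRE2, so PAR1 and HEC2 moved down past HEC1 and PRE1. Which neighbours differ beyond their spread cannot be said without values per library.

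**Figure D1:**
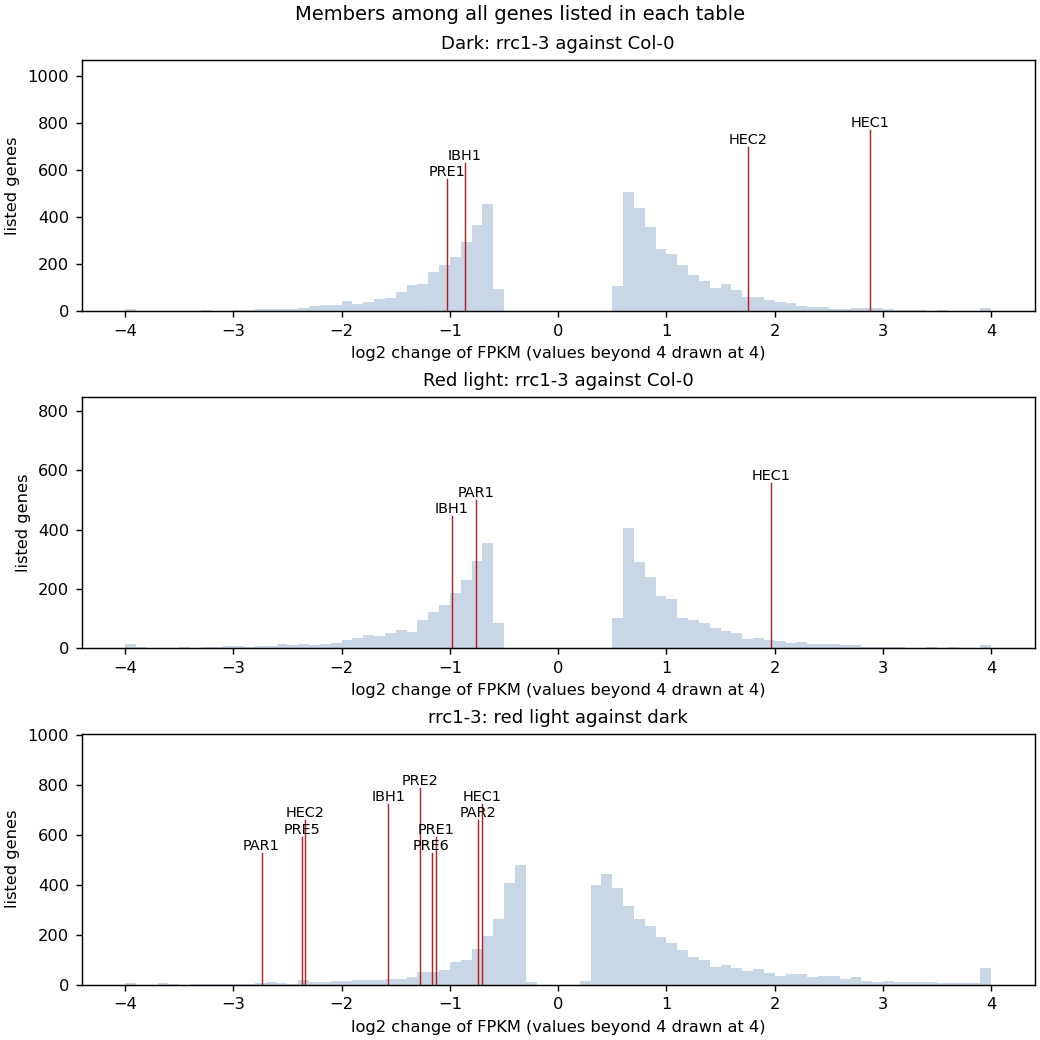
Number of listed genes (y axis) per log2 change of FPKM (x axis, bins 0.1 wide) in the authors' 3 deposited tables, with red lines at the log2 change of each of the 10 genes that is listed (line height has no meaning). HEC1 and HEC2 lie on the right in the dark panel, and in the panel of light in rrc1-3 all 9 lines lie on the left, between -2.74 and -0.70.

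A light response in Col-0 can be had for the pair of genes in all 3 tables, by adding the dark genotype change to the rrc1-3 response and taking off the red light one. HEC1 hardly moved in Col-0, with a chained log2 change of 0.21 from the authors' deposited tables, where its response in rrc1-3 was -0.70. By its construction the difference of -0.91 is the genotype change in red light less that in darkness. It was larger in size than that of 89.5% of the 1153 genes in all 3 tables. Genes listed in only 1 genotype table, such as HEC2, are left out of this share and of the next. Neither share is therefore a rank among all genes. IBH1 had a chained log2 change of -1.45 in Col-0 from the authors' deposited tables, close to its -1.57 in rrc1-3, and 24.7% of genes had a smaller difference. Direct ratios of the Col-0 FPKM gave 0.11 for HEC1 and -1.54 for IBH1. Thus the HEC1 difference between genotypes narrowed in red light through the mutant's value, and IBH1 fell in both genotypes from different starting levels. These comparisons share libraries, have no error and were not tested.

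**Figure D2:**
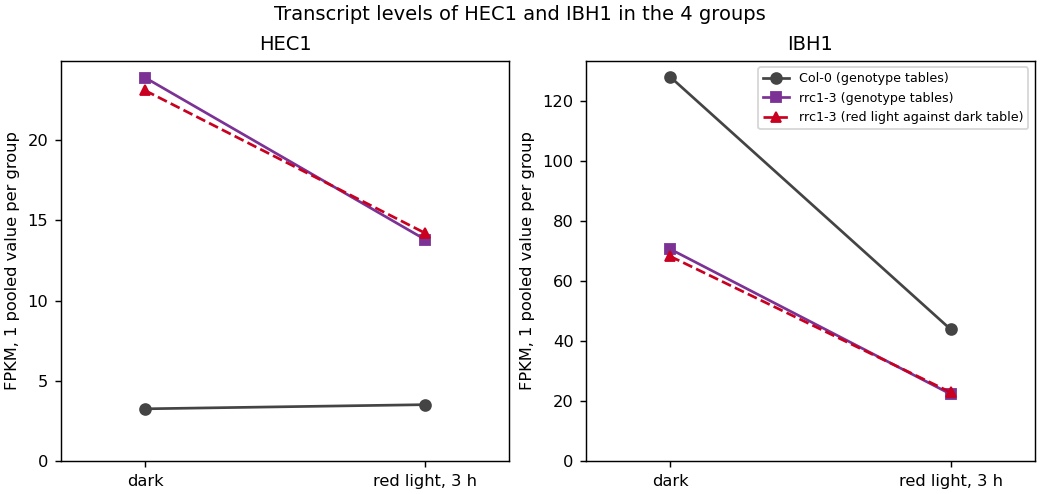
FPKM (y axis from 0, 1 pooled value per group, no error available) of HEC1 and IBH1 in darkness and after 3 h of red light, from the authors' deposited genotype tables (solid lines) and the table of light in rrc1-3 (dashed). HEC1 stays between 3.25 and 3.51 in Col-0, while IBH1 falls in both genotypes, and the dashed and solid rrc1-3 lines nearly coincide.

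The direction of the genotype changes ran with base composition and length over all genes. Exon GC content placed PRE1, PAR1 and IBH1 in the lowest quintile of listed genes and HEC1 and HEC2 in the fourth. In darkness 78.7% of the listed genes in the lowest quintile were lower in rrc1-3 in the authors' deposited table, and 74.1% of those in the fourth were higher. In red light the shares were 80.1% lower in the lowest quintile and 70.6% higher in the fourth. Each of the 7 genotype changes above thus had the direction of most genes of its GC class.

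Exon length gave a similar gradient: 75.0% of the shortest quintile, which holds PRE1, were lower in darkness in the authors' deposited table, and 56.8% of the next, which holds IBH1 and HEC1. In red light 65.5% of that second quintile, which holds PAR1, IBH1 and HEC1, were lower. HEC1 thus rose against most genes of its length class in both conditions. The table of light in rrc1-3 had little gradient: 35.7% of the lowest GC quintile and 39.7% of the fourth were lower in red light, and 41.3% of the shortest quintile. The part of composition or length in the changes of the 10 genes was not tested.

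**Figure D3:**
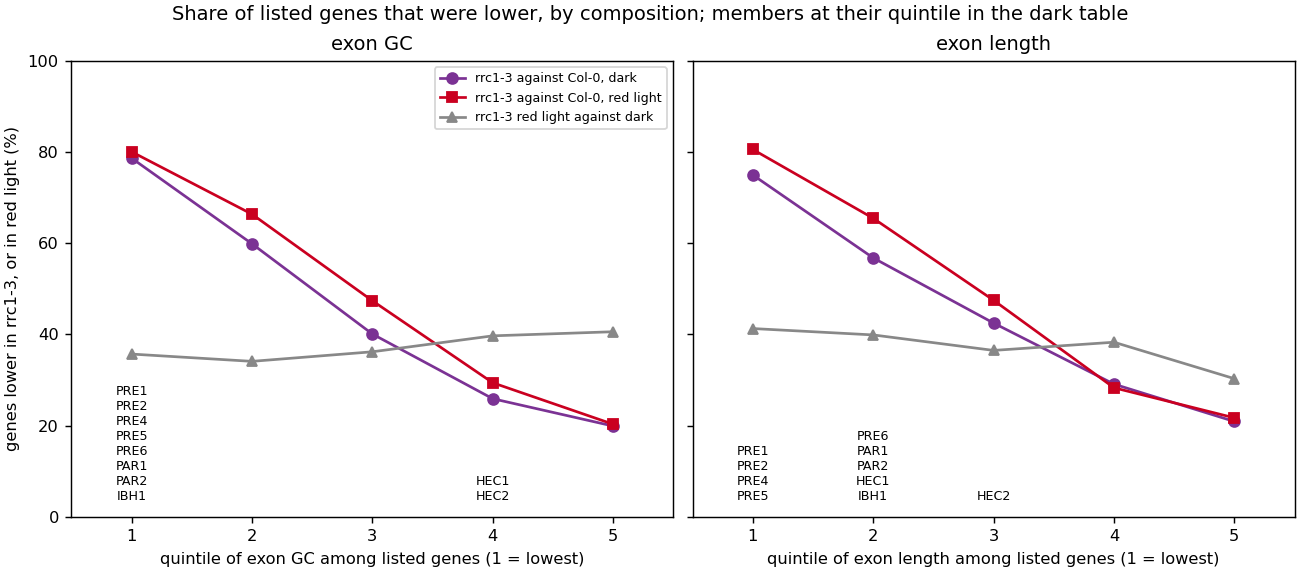
Share of listed genes that were lower in rrc1-3, or lower in red light (y axis, %), in each quintile of exon GC content (left) and exon length (right), in the authors' 3 deposited tables, with the 10 genes named at their quintile of the dark table. The lines of both genotype comparisons fall from about 80% to about 20%, and the grey line of light in rrc1-3 stays between 30% and 42%.

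Markers of other tissues also moved with genotype. Of 5 root hair genes, 3 were higher and 0 lower in rrc1-3 in darkness and 4 higher in red light in the authors' deposited tables, with none listed for light in rrc1-3. Over all genes 18.4% were called higher in darkness and 11.7% in red light. EXPA7, a root hair expansin, was at 1.98 FPKM in Col-0 and 5.73 in rrc1-3 in darkness in the authors' deposited table. LRX1 and COBL9 were lower, at 0.366 and 0.346 FPKM in Col-0. Of 7 seed storage genes, 3 were higher in darkness, 2 were higher and 1 lower in red light, and 6 rose with light in rrc1-3 in the authors' deposited tables, where 18.0% of all genes (3595 of 20020) rose. Median log2 changes of the listed root hair genes were 1.51 and 1.49 in darkness and red light, and those of the seed genes 1.45, 1.01 and 1.21 over the 3 tables. SESA3, a seed albumin, was at 0.774 FPKM in Col-0 and 1.80 in rrc1-3 in darkness in the authors' deposited table. SESA1 and SESA2 were lower, at 0.179 and 0.527 FPKM in Col-0, so these rises start from low levels. CRA1, the seed gene called lower in red light, was at 34.0 FPKM in Col-0 and 22.1 in rrc1-3 (log2 change -0.62). The part of these tissues in the HEC, PRE, PAR and IBH1 values was not tested.

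The bHLH activators that IBH1 restrains and PRE proteins release were mostly unlisted in the genotype tables. Of 9, 0 were higher and 1 lower in darkness, 0 higher and 2 lower in red light, and 1 higher and 4 lower with light in rrc1-3 in the authors' deposited tables. Over all genes the shares called higher and lower were 18.4% and 14.9% in darkness, 11.7% and 11.0% in red light and 18.0% and 10.6% with light in rrc1-3, and 1 of 9 lower in darkness is near its share. HBI1, an activator that IBH1 inhibits, was at 90.7 FPKM in Col-0 and 59.6 in rrc1-3 in darkness in the authors' deposited table (log2 change -0.61). In red light it was at 84.0 and 51.3 FPKM in the authors' deposited table (-0.71). HBI1, IBH1 and PRE1 were thus all lower in the mutant in darkness. BEE3, a brassinosteroid-induced activator, was at 15.8 FPKM in Col-0 and 2.29 in rrc1-3 in red light (-2.79), and fell with light in rrc1-3 from 18.6 to 2.35 (-2.98) in the authors' deposited tables. BEE2 rose with light in rrc1-3 from 57.0 to 81.7 FPKM (0.52), while in the authors' deposited table CIB5 fell by 0.69 and BEE1 by 0.50 (log2). The median log2 change of the 5 listed there was -0.50, against 0.47 for all listed genes and -0.55 for all genes listed lower.

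Of 8 related inhibitors and family members, PRE3 and HEC3 among them, 0 were higher and 2 lower in darkness, 2 higher and 1 lower in red light, and 2 higher and 3 lower with light in rrc1-3 in the authors' deposited tables. The shares over all genes are the 18.4% and 14.9%, 11.7% and 11.0%, and 18.0% and 10.6% given above. UPB1, which limits root growth through peroxidase genes, was at 209 FPKM in Col-0 and 43.5 in rrc1-3 in darkness (log2 change -2.26) and at 114 and 22.0 in red light (-2.37) in the authors' deposited tables. It fell with light in rrc1-3 by 0.89 in log2 in the authors' deposited table. IBL1, a close relative of IBH1, was at 62.3 FPKM in Col-0 and 41.4 in rrc1-3 in darkness in the authors' deposited table (-0.59). AIF1, an inhibitor that binds PRE3, rose with light in rrc1-3 from 14.3 to 72.3 FPKM in the authors' deposited table (2.34), while IBH1 fell. In red light AIF1 was at 34.1 FPKM in Col-0 and 70.3 in rrc1-3 in the authors' deposited table (1.04), and AIF4 was higher too (0.65). AIF3 fell with light in rrc1-3 (-0.89) in the authors' deposited table. The median log2 changes of the listed genes of these 8 (PRE3 among them for light) were -1.43 in darkness, 0.65 in red light and -0.69 for light in rrc1-3, against 0.64, 0.59 and 0.47 for all listed genes.

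PAR and HEC proteins act on PIFs. Among the PIF genes and their bHLH partners, 2 of 11 were higher and 1 lower in each genotype comparison in the authors' deposited tables. With light in rrc1-3, 5 rose and 4 fell. The genotype counts lie near the shares over all genes, 18.4% higher and 14.9% lower in darkness and 11.7% and 11.0% in red light, and with light 18.0% of all genes rose and 10.6% fell. HFR1, an atypical bHLH that sequesters PIFs, was at 304 FPKM in Col-0 and 139 in rrc1-3 in darkness (log2 change -1.13) and at 174 and 112 in red light (-0.63) in the authors' deposited tables. PIF8 was higher in rrc1-3 in darkness (1.10) and red light (0.94), and PIF3 in darkness (0.80), in the authors' deposited tables. The PIF8 levels in darkness were low, 2.70 FPKM in Col-0 and 5.76 in rrc1-3. PIL1, an early shade-response gene, was higher in rrc1-3 in red light (1.00), at low levels of 1.43 FPKM in Col-0 and 2.84 in rrc1-3. It fell with light in rrc1-3 from 33.6 to 2.93 FPKM (-3.52) in the authors' deposited tables. In the authors' deposited table the log2 response of PIF7 was 4.54, that of PIF8 2.41 and that of PIF6 -2.35. That of PIF7 starts from a low level, 0.285 FPKM in darkness against 6.63 in red light. The medians of the listed PIF genes and partners were 0.80, 0.94 and 0.49, beside the 0.64, 0.59 and 0.47 of all listed genes.

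Of 16 genes of brassinosteroid synthesis and signalling, which act upstream of PRE1 and IBH1, 0 were higher and 4 lower in rrc1-3 in darkness in the authors' deposited table: BR6OX2, DWF4, BIM2 and ROT3. Over all genes 18.4% were called higher and 14.9% lower in darkness. The median log2 change of these 4 was -0.67, a smaller fall than the -0.91 of all genes listed lower in darkness. The medians of the listed brassinosteroid genes in red light and for light in rrc1-3 were 0.78 and -0.44. BR6OX2, which makes active brassinosteroid, was at 114 FPKM in Col-0 and 55.9 in rrc1-3 in the authors' deposited table (-1.03). In red light 2 were higher, BIM1 (0.97) and the receptor gene BRI1 (0.59), with 0 lower, by the authors' deposited table. With light in rrc1-3, 2 rose and 4 fell in the authors' deposited table, BR6OX1 the most (0.91). The shares over all genes were 11.7% higher and 11.0% lower in red light, and 18.0% higher and 10.6% lower with light. Of 8 growth genes downstream, SAUR15 was lower (-1.26) and the expansins EXPA5 (0.60) and EXPA8 (0.59) higher in darkness in the authors' deposited table, 1 lower and 2 higher of 8. In red light 3 were higher, EXPA11 the most (0.90), and with light in rrc1-3 2 rose, EXPA1 the most (1.59), and 4 fell, IAA19 the most (-1.39), in the authors' deposited tables, to be read against the same shares over all genes. Their medians were 0.59 in darkness, 0.71 in red light and -0.79 for light in rrc1-3.

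Genes with a pattern most like HEC1 were sought by distance over the 3 log2 changes, among 832 genes listed in all 3 tables with a mean of at least 5 FPKM. Nearest was AZI1 (AT4G12470, a lipid transfer protein gene), at a distance of 0.69, where the authors' deposited tables give 2.62, 1.34 and -0.62. AT4G22490, AT3G49601 and AT5G02550 followed at 0.77, 0.87 and 0.89. For IBH1, searched after its values were seen, STR15, AT1G21400, CYS4 and NAC055 were nearest, at 0.28, 0.34, 0.39 and 0.45. PRE1 could not be searched, since it is not in the red light table.

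None of the 10 genes had a listed feature in the authors' deposited splicing tables, which held 6244 features in darkness, 6003 in red light and 843 for light in rrc1-3, and no junction of theirs was counted in another feature. PAR1, PAR2, HEC2 and IBH1 have no annotated intron. The PRE genes each have 1, and HEC1 has 1 of 96 bases in 1 of its 2 annotated transcripts. Those tables list features with an FDR of at most 0.05 and a difference of at least 0.03, so splicing of the PRE introns below these limits was not analysed here.

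Partners of the 10 genes do carry listed introns. For these the reads spliced over the intron are given per library, lowest to highest, and retention is the authors' fraction per group, which has no error. The introns of HBI1 and BEE2, and that of BEE3 at chr1:27761104-27761265, are of the class that overlaps an alternative event. Their fraction may thus include splicing other than plain retention. The introns are listed because the authors called them, so no test was added, and spliced reads also follow the level of the transcript. Over all kept features, spliced or excluding reads per library ranged from 1032782 to 1291436 in Col-0 and from 1013788 to 1326024 in rrc1-3 in darkness. In red light they ranged from 1137642 to 1336311 in Col-0 and from 1347567 to 1511823 in rrc1-3, so every mutant library had more such reads. These totals cover called features only and are not sequencing depth.

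The HBI1 intron at chr2:7953311-7953391 had 111, 113 and 113 spliced reads in Col-0 and 124, 133 and 168 in rrc1-3 in darkness, without overlap. Its retention in the authors' deposited table was 50.4% and 44.5%. These counts were not scaled to the totals above, whose middle library in darkness had 1039033 reads in Col-0 and 1210361 in rrc1-3. The higher spliced counts of HBI1 in the mutant are therefore not set against its lower FPKM. In red light they were 95, 100 and 123 in Col-0 and 100, 133 and 172 in rrc1-3, which overlap, with retention of 52.3% and 48.1% in the authors' deposited table.

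In BEE2 the intron at chr4:17244554-17244643 was retained at 39.1% in Col-0 and 45.8% in rrc1-3 in red light, and at 36.6% and 41.2% in darkness, in the authors' deposited tables. Its spliced reads in red light were 116, 122 and 157 in Col-0 and 162, 214 and 214 in rrc1-3, so both spliced reads and retention stood higher in the mutant. In darkness the spliced reads were 101, 131 and 164 in Col-0 and 141, 142 and 148 in rrc1-3, which overlap. In CIB5 the intron at chr1:9088925-9089012 was retained at 0% in Col-0 and 11.8% in rrc1-3 in red light in the authors' deposited table. It had 25, 31 and 34 spliced reads in Col-0 and 33, 48 and 57 in rrc1-3, which overlap.

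In BEE3 the intron at chr1:27760780-27760853 had 91, 122 and 296 spliced reads in Col-0 and 29, 40 and 54 in rrc1-3 in red light, without overlap. Retention was 5.13% and 15.2% in the authors' deposited table, so BEE3 had fewer spliced reads, a lower FPKM and a higher retained share in the mutant. Another BEE3 intron, at chr1:27761104-27761265, was called by the authors in darkness (FDR 0.0149), with retention of 40.3% in Col-0 and 45.0% in rrc1-3 in the authors' deposited table. It had 7, 16 and 17 spliced reads in Col-0 and 17, 17 and 18 in rrc1-3, which touch.

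The SPT intron at chr4:17415020-17415091 was retained in darkness at 13.3% in Col-0 and 7.29% in rrc1-3 in the authors' deposited table. It had 102, 126 and 213 spliced reads in Col-0 and 213, 293 and 302 in rrc1-3, which touch. ALC, a relative of SPT, was retained at 52.4% in Col-0 and 33.0% in rrc1-3 at chr5:26785524-26785617 in darkness in the authors' deposited table, with 11, 25 and 29 spliced reads in Col-0 and 38, 40 and 65 in rrc1-3. Among these 6 genes the authors' fraction was higher in the mutant in BEE2, BEE3 and CIB5 and lower in SPT, ALC and HBI1. This tally mixes plain introns with introns that overlap an alternative event. The share of all listed features in each direction was not worked out, so nothing is read from it. Other features of the PIF list were not described: it had 14 listed features in 8 genes in darkness (PIF1, PIF3, PIF4, PIF5, PIF8, HFR1, SPT and ALC) and 10 in 4 genes in red light (PIF1, PIF3, PIF4 and PIF5). For light in rrc1-3 it had 2, both in PIF7. The brassinosteroid list had 9 listed features in 3 genes in darkness and 13 in 6 genes in red light, also not described. With 3 libraries against 3, an exact permutation test cannot go below a p of 0.10.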

How the data were processed

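Per the labels, 12 RNA-seq libraries of seedlings were made in 4 groups of 3. Reads were aligned with TopHat2 to TAIR10, per the submitters' processing notes, with no version given. The expression tables hold FPKM per group, pooled over libraries, with a log2 change, a test score and p-values and q-values, all as deposited by the authors. Their column layout is that of Cuffdiff, which no label names. The splicing tables hold counts of reads per library at junctions and boundaries and a fraction of inclusion or retention per group, per the file headers. For genes in a genotype table and the light table, the median ratio of rrc1-3 levels was 1.04 in darkness and 0.972 in red light.

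An edgeR test of gene counts had been planned, with the authors' deposited calls as the fallback. The tables held pooled FPKM, so the fallback was used, calls were copied, and no test of expression was run. The number of genes tested was worked out from the smallest deposited p-value and its q-value. Of the listed splicing features, 267 in darkness, 272 in red light and 20 for light in rrc1-3, all of 1 retention class, carried junctions of another gene and were dropped. Sequencing depth is not given, and read totals per library are known for the listed splicing features only. Library columns name the group and no replicate. Another 36 columns of counts per library, at inclusion junctions and boundaries, could not be tied to samples and were not used.

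Exon length, GC, promoters and coding identity came from RefSeq TAIR10.1, in which 98.6%, 98.8% and 99% of listed introns ran from GT to AG. Named genes were all 10, up to 4 of each list with the largest changes per comparison, and the 4 genes nearest to HEC1 and to PRE1. The lists covered HBI1-type activators, related inhibitors, PIFs, brassinosteroid genes, growth genes, root hairs and maturing seed. Genes and lists were chosen with earlier results of these data known. Scripts ran in Python 3.11.15 with pandas 2.3.3, numpy 2.4.6, Biopython 1.88 and matplotlib 3.10.9, and were checked on simulated data. Alternatives were a q of at most 0.01, a log2 change of at least 1, a level of at least 1 FPKM and a pseudocount of 1 FPKM.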

Additional observations from a re-analysis of the deposited data

How the results depend on the processing

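In red light 3 of the 10 genes were called in the authors' deposited table, and with a log2 change of at least 1 asked for besides, 1 remained, HEC1. The counts in darkness (4) and for light in rrc1-3 (9) stayed within 1.5 times under a q of at most 0.01 (4 and 8), a log2 change of at least 1 (3 and 7) and a level of at least 1 FPKM (4 and 9). The count of 9 also held with the least change of the genotype tables, a limit chosen after seeing the data. Over all genes, 1665 of at least 17733 tested in red light were listed with a log2 change of at least 1 in size. In darkness these were 2509 of at least 16942, and for light in rrc1-3 1760 of 20020. Background shares at the other limits were not worked out, and nothing is read from these counts of members. Of 16 log2 changes, 15 stayed within 1.5 times with a pseudocount of 1 FPKM, and that of PRE2 went from -1.28 to -0.70. Both chained responses in Col-0 kept their direction as direct ratios.

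No paired analysis was possible because the expression tables pool the libraries, no feature of these genes is in the splicing tables, and the library columns name no replicate. For the same reasons leaving out libraries, a filter on low junction counts and the use of 1 boundary gave no value. The spread of expression between libraries, and so the error of every level and fold above, is unknown. Genes absent from a table cannot be read as unchanged.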
